A study of Mus musculus with 4 samples.

Results

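Genes for protein, lipid and other kinases were examined in a peak list of CHD4 from mouse spermatogonial cells. Membership was set by the full gene name in the deposited list. A gene was taken when its name held the word kinase and none of the words inhibitor, anchor, substrate, interacting, binding, phosphatase or ribosomal, and 4 further genes were set aside by name. The name held the word at 88 summits, of which an excluded word removed 14 and the genes set aside accounted for 5. This gave 61 intervals of 1849 in the list and 54 genes of 1517, from 69 summits of 2066. The samples were 2 with an antibody to CHD4 and 2 with a rabbit antibody to mouse IgG coupled to horseradish peroxidase, all from wild-type C57BL/6 mice, and the submitters describe the samples of each antibody as biological replicates. Fragments came from CUT&Tag of cells from digested testes, where Tn5 transposase, tethered through protein A/G to the bound antibody, cuts and tags nearby DNA. The sources used here give neither an age nor a way of separating spermatogonia from other testis cells. The list is 1 call of CHD4 over IgG with no value per sample, so no interval has an error between replicates and no test over samples could be made. It holds no expression values, so the labelled cell type could not be checked against marker genes, and an interval says nothing of whether its gene was active.

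CHD4 uses ATP to slide nucleosomes as part of NuRD, a complex that also removes acetyl groups from histones. Kinases move a phosphate group from a nucleotide, usually ATP, to a substrate. Protein kinases act on serine, threonine or tyrosine and pass signals from receptors at the membrane through cascades such as the MAP kinase pathway, while lipid kinases mark membranes by phosphorylating phosphoinositides or diacylglycerol. In the testis, growth factor signalling through receptor kinases, PI3K and MAP kinases supports spermatogonial stem cells. Metabolic kinases phosphorylate sugars, vitamins and nucleosides. The word rule does not separate these kinds: by symbol, 37 of the 54 genes belonged to protein kinase families, 2 to lipid kinase families, 9 to kinases of small molecules and 2 to scaffold proteins with a guanylate kinase-like domain. The other 4 were matched by word alone. They were Nyap1, a phosphoinositide 3-kinase adaptor, Plaur, the urokinase receptor, Map2k3os, a transcript opposite Map2k3, and the pseudogene Pdxk-ps. Protein kinase genes were therefore most of the group, and the lipid kinases were only Pik3r1 and Dgkg.

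The stretches of promoter that lay within a CHD4 interval are shown for protein kinase genes whose interval contained a transcript start, since these are the places where the signal and the start coincide. There were 6 such genes: Camkk2, Eef2k, Map4k3, Mapkapk3, Nek8 and Plk2. For 4 of them the interval overlapped a promoter window of the same gene in the RefSeq promoter table (build GRCm38.p6, with 250 bases before and 50 after a start). Each stretch is printed 5′ to 3′ on the strand of its gene, in lower case, with matches to the motifs named after it in capitals. The Eef2k stretch lies at chr7:120842664-120842880 on the plus strand, and the Plk2 stretch at chr13:110394794-110395093 on the plus strand. The Mapkapk3 stretch lies at chr9:107289828-107289948 and the Nek8 stretch at chr11:78176617-78176671, both on the minus strand.
Eef2k: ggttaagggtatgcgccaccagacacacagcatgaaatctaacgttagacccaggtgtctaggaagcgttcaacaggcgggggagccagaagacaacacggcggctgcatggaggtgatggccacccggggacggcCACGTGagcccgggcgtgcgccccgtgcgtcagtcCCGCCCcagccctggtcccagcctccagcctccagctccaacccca
Plk2: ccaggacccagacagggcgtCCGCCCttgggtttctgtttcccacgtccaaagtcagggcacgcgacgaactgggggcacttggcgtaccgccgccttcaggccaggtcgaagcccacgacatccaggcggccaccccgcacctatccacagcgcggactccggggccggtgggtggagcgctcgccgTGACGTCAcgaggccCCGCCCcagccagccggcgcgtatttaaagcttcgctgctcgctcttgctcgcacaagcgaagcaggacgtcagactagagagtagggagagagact
Mapkapk3: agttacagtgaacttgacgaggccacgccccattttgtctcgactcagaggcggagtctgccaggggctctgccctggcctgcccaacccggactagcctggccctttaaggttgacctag
Nek8: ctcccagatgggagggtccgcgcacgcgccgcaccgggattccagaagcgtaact

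The Eef2k stretch held 1 GC box and 1 E-box. In Plk2 there were 2 GC boxes and 1 full cAMP response element. No motif was found in the Mapkapk3 and Nek8 stretches, which cover 121 and 55 bases of windows that hold an E-box and a GC box elsewhere. No base lay in more than 1 match. Of 8 motifs searched on both strands, the GC box (GGGCGG) was in 4 of the 10 RefSeq windows that a kinase gene interval overlapped, from 8 genes, at Adk, Eef2k, Nek8 and Plk2. That is 40%, beside 71.9% of the 349 windows that any interval overlapped at its own gene and 35.7% of all 32851 windows. The E-box (CACGTG) was in 4 of the 10, at Eef2k, Mapkapk3 and Nme1, beside 11.2% of overlapped windows and 7.15% of all windows. The CCAAT box (CCAAT) was in 3, at Adk, Nim1k and Pank1, beside 43.6% and 37.4%. The cAMP response element (TGACGTCA) was in that of Plk2, beside 4.58% and 1.79%, and the AP-1 site (TGANTCA) in that of Nme1, beside 6.59% and 7.81%. None of the 10 held an ETS site (CCGGAAGT), a TATA box (TATAAA) or an NRF1-type site (GCGCATGCG). These were in 8.02%, 6.59% and 7.16% of overlapped windows, and in 3.89%, 13.6% and 1.75% of all windows. Windows of 1 gene can share bases, and with 10 windows each share moves by 10 percentage points for 1 window. Median GC content was 59.7% in the kinase windows, 60.3% in all overlapped windows and 52.7% in all windows, and the median number of CG dinucleotides per window was 17.5, 21 and 7 in the same groups.

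By fold, kinase gene intervals were centred near the middle of the list. Their median fold of CHD4 over IgG was 4.48 (exact 95% order-statistic interval 4.19 to 4.88), the quartiles were 3.99 and 5.13, and the lowest and highest were 2.77 and 9.72. Over all 1849 intervals the median was 4.76 (4.67 to 4.8) and the extremes were 1.75 and 13.6. The fold is the peak caller's own value, a ratio at the summit, and an interval with several summits was given its highest. Of the 61 kinase intervals, 27 lay above the median of the list, 10 above its upper quartile of 5.64 and 3 among its top 184 of 1849. The upper quartile of kinase intervals, 5.13, was thus below that of the list, while the lower quartiles were 3.99 and 4.03. Median −log10 q was 2.59 in kinase intervals and 2.9 in all intervals, and the median width was 274 bp and 280 bp. These medians are close, and no test was made of the differences.

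The depth behind each peak was low. From the deposited fold and −log10 p, whole fragment numbers were recovered at every summit, on the largest scale that fitted. At the summit of a kinase interval there was a median of 27 CHD4 fragments, with 12 at the fewest and 74 at the most. The IgG expectation there had a median of 1.48 and extremes of 0.346 and 8.49. All intervals had the same median of 27 fragments and a median expectation of 1.31. By that scale, the CHD4 library was inferred to be 2.33 times the depth of the IgG library. The fold compares CHD4 fragments scaled by 0.429 plus 1 with the IgG expectation plus 1. In 17 of the 61 kinase intervals fewer than 20 CHD4 fragments supported the call, as in 474 of all 1849 intervals. At Flt1, Bmp2k and 1 interval of Trib1 IgG was at 0.346, its floor in the list, as in 129 intervals in all. With 12 fragments, as at Mylk3, Ankk1 and Sik3, the exact 95% Poisson interval runs from 6.2 to 21. These intervals cover counting error only.

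**Figure D1:**
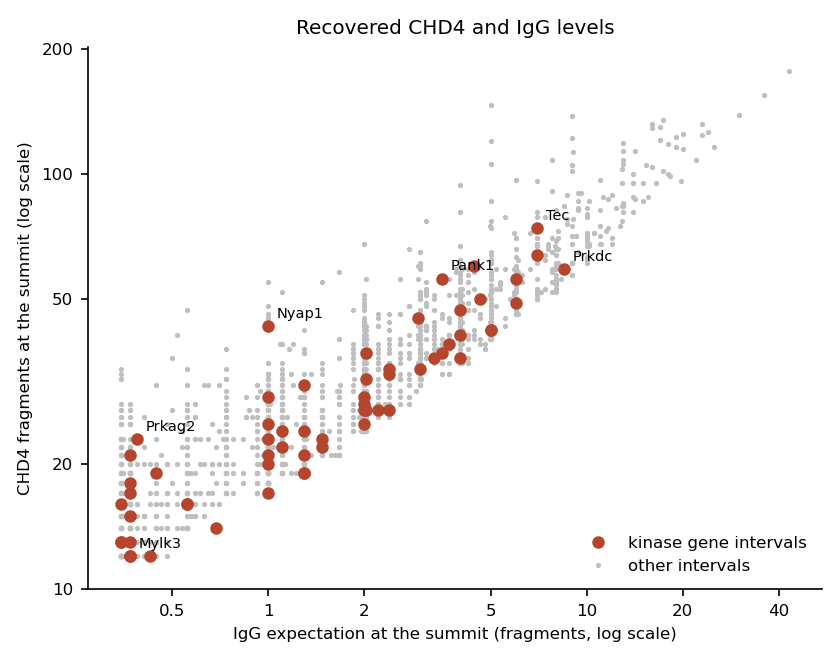
Recovered CHD4 fragments at the summit (vertical axis, log scale) against the IgG expectation there (horizontal axis, fragments, log scale), with 1 point per interval, kinase gene intervals in red and other intervals in grey. Kinase intervals reach from 12 fragments at Mylk3 to 74 at Tec, and Nyap1 stands at 43 fragments over an expectation of 1.

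Kinase intervals were spread over location classes in shares close to those of the whole list. The authors' annotation put 21 of the 61 in its promoter class, up to 1 kb from a start, which is 34.4% (22.7 to 47.7, exact 95% limits), against 631 of all 1849, or 34.1% (32.0 to 36.3). Another 5 lay at 1 to 3 kb (8.2%, against 8.06%). Introns held 19 (31.1%, 19.9 to 44.3, against 26.7%) and distal intergenic sequence held 14 (23%, 13.2 to 35.5, against 24.7%). Of the remaining 2, 1 was in the 3′ UTR class and the other lay downstream of Prkag2. No kinase interval was classed as exon, where 0 of 61 allows up to 5.87%, against 4.43% of all intervals. Every share of all intervals fell within the exact interval of the kinase share.

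**Figure D2:**
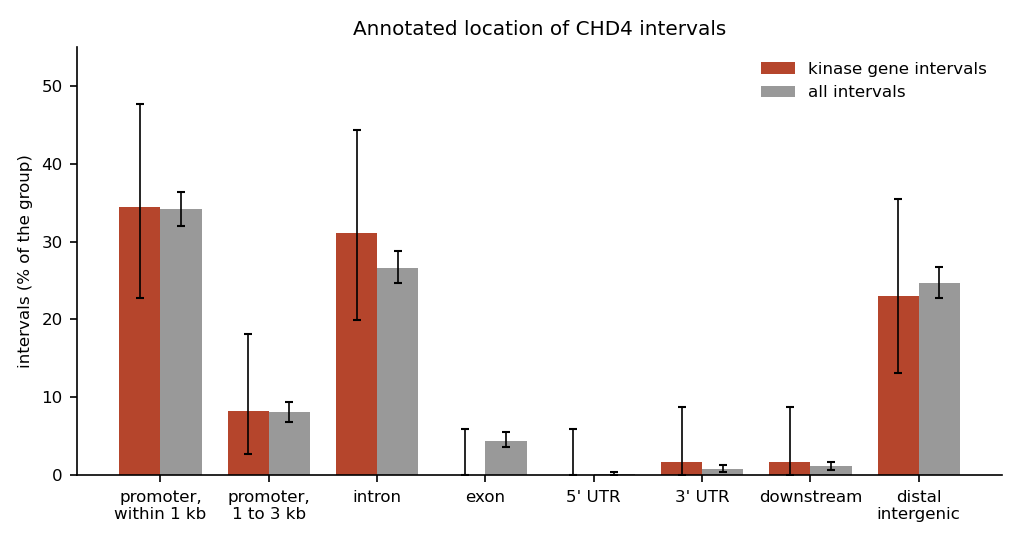
Share of intervals in each location class of the authors' annotation (vertical axis, % of the group), for 61 kinase gene intervals in red and all 1849 intervals in grey, with exact 95% binomial intervals. The promoter class holds 34.4% of kinase intervals and 34.1% of all intervals.

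Distances spread over several orders of size. An interval contained the start at 8 genes (13.1%, 5.84 to 24.2, against 15.7% of all intervals), namely Camkk2, Eef2k, Map4k3, Mapkapk3, Nek8, Plk2, Adk and Nme1. A further 13 lay beside a start, between 2 bp at Gne and 749 bp at Tnk2, with 7 upstream and 6 downstream of it. Just outside the 1 kb limit lay Vrk1 at 1.4 kb and Mylk3 at 1.42 kb. The median distance over the 61 was 6.57 kb, with quartiles of 0.179 and 19.7 kb, against 5.63 kb, 0.145 and 23.6 kb in the whole list. Distances of 10 to 30 kb were found for 12 intervals, 30 to 100 kb for 9 and over 100 kb for 4. The farthest was at Fer, 149.8 kb upstream, followed by 2 intervals of Trib1 at 128 and 107 kb and that of Pik3r1 at 111 kb. By distance class the median fold ranged from 4.07, where the interval contained the start, to 4.88 at 10 to 30 kb. Median values in the 21 promoter intervals were a fold of 4.21, 28 fragments and an expectation of 2.03, and in the 40 others a fold of 4.64, 24.5 fragments and an expectation of 1.2. In the whole list these medians were 4.32 from 34 fragments at promoters and 4.98 from 25 fragments elsewhere.

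**Figure D3:**
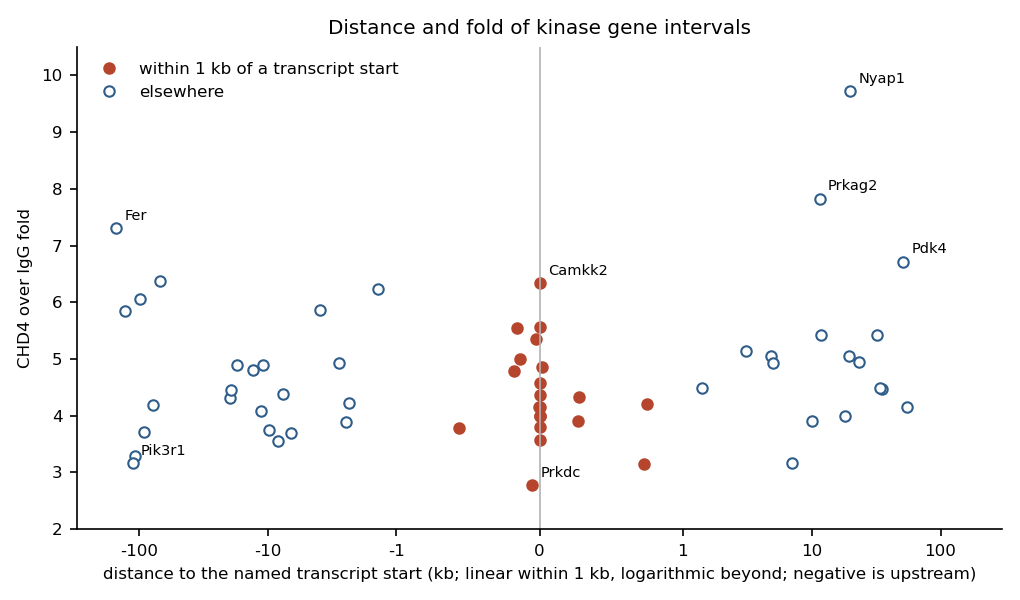
Fold of CHD4 over IgG (vertical axis) against distance to the named transcript start (horizontal axis, kb, linear within 1 kb and logarithmic beyond, negative upstream), with 1 point per kinase gene interval. Filled points lie within 1 kb of a start and reach from 2.77 at Prkdc to 6.34 at Camkk2, while the 4 highest folds, from 6.72 to 9.72, lie between 11.5 and 149.8 kb away.

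Of the 40 intervals more than 1 kb from a start, 18 (45%) lay inside the gene they were named for, against 43% of all 1218 such intervals. Another 4 lay only inside another protein-coding gene and 18 in none. Of the 4, 3 Trib1 intervals lay in Nsmce2, and that of Ankk1 lay in the neighbouring gene Drd2. The nearest protein-coding gene by body was not the named one for 6 of the 40: those 4, Pdk4, which was nearer to Asb4, and Dgkg, which was nearer to Crygs. No kinase interval overlapped a gene for small nuclear, transfer or 7S RNA, which 46 of all 1849 intervals (2.49%) did.

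Kinase families were represented broadly and thinly. Among 544 genes of the protein and lipid kinase families in the RefSeq gene table, 49 (9.01%, exact 95% interval 6.74 to 11.7) were named for an interval, against 6.10% of 21779 protein-coding genes. With an interval within 1 kb of the start there were 18 (3.31%, 1.97 to 5.18), against 2.57%. These families were listed by symbol, so the 49 include 10 genes that the word rule does not take. The 4 genes set aside by name all had an interval and are in neither number, and with them the share was 53 of 548 (9.67%). The genes differ in length: the median was 50.1 kb in the kinase families and 17.2 kb over all protein-coding genes, and it was 34.7 kb in the 1329 protein-coding genes named for an interval. The part of gene length in the share of kinase genes named was not tested. Kinases of small molecules were named in 10 of 97 cases (10.3%), and 4 of 97 had a promoter interval. By family the shares ran from 0 of 23 cyclin-dependent kinases, which allows up to 14.8%, to 4 of 22 guanylate kinase scaffolds (18.2%). One cyclin-dependent kinase gene with an interval is among those set aside. The exact interval of every one of the 20 families held the 6.10% of all protein-coding genes.

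**Figure D4:**
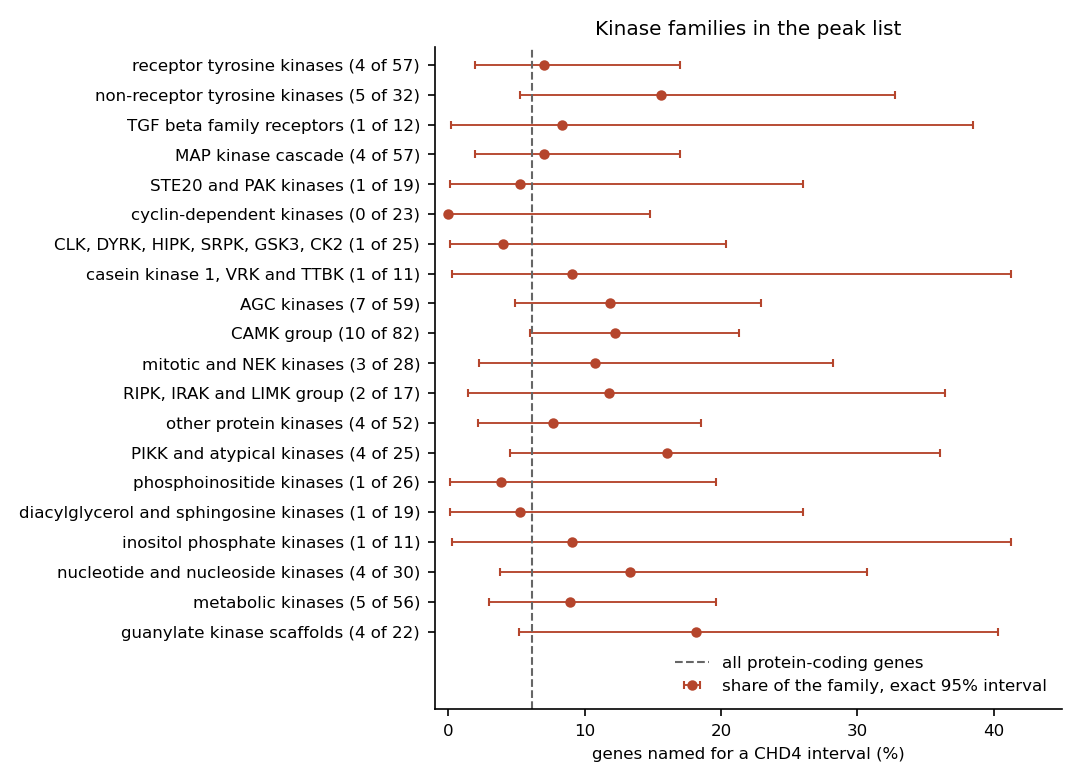
Share of each kinase family's protein-coding genes that were named for a CHD4 interval (horizontal axis, %), with exact 95% binomial intervals and the counts in the row labels. The dashed line is the 6.10% of all protein-coding genes, which lies within the interval of every family.

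Receptor and cytoplasmic tyrosine kinases had 8 intervals at 7 genes. Axl, a receptor of the TAM family that takes part in the clearance of dying cells, had 2 intervals, both in its introns. One lay at chr7:25781513-25782045, 5.02 kb from the start, with a fold of 4.92 from 60 fragments over 4.43, and the other at chr7:25783699-25783957, 3.11 kb from it, with 5.13 from 45 fragments over 2.95. At both places the recovered CHD4 fragments exceeded the kinase median of 27. Flt1, a receptor of vascular endothelial growth factor, had an interval 10.9 kb upstream with a fold of 4.88. Among the cytoplasmic enzymes, Yes1, of the Src family, and Tnk2, which is activated by Cdc42, had promoter intervals with folds of 3.91 and 4.21. The Yes1 interval also overlapped Gm10461. Tec, a kinase of blood cell signalling, had the highest fragment number of any kinase interval, 74 (Poisson interval 58.1 to 92.9) over an expectation of 7, in its own intron at chr5:72855764-72856068, and a fold of 4.09. Blk, a Src family kinase of B cells, had 1 at 23.1 kb with 4.95, within the non-coding Gm4151. Fer, which has a shorter form known from testis, had a fold of 7.31 from 21 fragments over 0.369 at chr17:63712880-63713282, 149.8 kb from its start and in no gene.

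In the MAP kinase cascade, intervals were found at the upper tiers. Map4k3, an upstream kinase, had an interval over a start (chr17:80728421-80728706), where 21 fragments over 1.29 gave 4.36. It also overlapped the non-coding Gm9959, as the intervals of Eef2k and Nim1k did Gm36449 and Gm41077. Map3k1, of the tier that activates MAP kinase kinases, had 1 in an intron 19.5 kb from the start with 5.06, and Map4k4, which acts towards JNK, had 1 at chr1:39896606-39896968, 3.94 kb upstream, with 5.86 from 25 fragments over 1. No Map2k gene was named. The transcript Map2k3os, opposite to Map2k3, had a promoter interval of fold 3.14. In the cascade list 4 of 57 genes had an interval (7.02%, 1.95 to 17.0), against 6.10% of protein-coding genes. Stk24, a relative of the STE20 kinases, had an intronic interval of fold 3.17.

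Kinases related to AMP-activated kinase, and to calcium and calmodulin, had 13 intervals at 8 member genes, of which 4 were named for the pseudokinase Trib1. Theirs was also the longest family list, in which 10 of 82 genes (12.2%, 6.01 to 21.3) were named, against 6.10% of protein-coding genes. Prkag2, the gamma subunit that senses AMP, had the highest fold of any member in a kinase family, 7.83 from 23 fragments (14.6 to 34.5) over 0.388, at chr5:24859782-24860214, 11.5 kb downstream of the start it was assigned to. Camkk2, which phosphorylates AMP-activated kinase, had 3 intervals within 18.7 kb. The first, at chr5:122763561-122764161, contained a start, with a fold of 6.34 from 19 fragments over 0.443, the highest fold of the kinase promoters. The others, at chr5:122770439-122770784 and chr5:122781893-122782303, had 3.7 from 27 fragments over 2.4 and 3.89 from 34 fragments over 3. The interval with the highest fold of the 3 was thus the one with the fewest fragments. Nuak1 and Nim1k, relatives of AMP-activated kinase, had promoter intervals, with folds of 5 from 21 fragments over 1 at chr10:84392527-84392797 and 5.36 from 24 over 1.11 at chr13:119755906-119756218. Sik3, a salt-inducible kinase, had an intronic interval of fold 4.31 from 12 fragments. Mapkapk3, a target of p38, had 1 over its start (chr9:107289643-107289948) with 3.99 from 19 fragments over 1.29, and Mylk3, a myosin light chain kinase of heart, 1 at 1.42 kb with 4.49.

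Trib1, a pseudokinase that brings substrates to a ubiquitin ligase, was named for 4 intervals spread over 161 kb, the most of any gene in the group. The 3 upstream intervals, at chr15:59519901-59520122, chr15:59540977-59541250 and chr15:59550471-59550760, lay in Nsmce2, 97.6 to 128 kb from the start. Their folds were 5.84 from 16 fragments over 0.346, 3.29 from 36 over 4 and 6.05 from 17 over 0.369. At chr15:59680636-59680893, 32 kb downstream, the fold was 5.43 from 15 fragments over 0.369. None of the 4 overlapped Trib1 itself.

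In the AGC group, which holds relatives of protein kinases A and C, 1 of 6 intervals was at a promoter. It belonged to Mast2, a microtubule-associated kinase, with a fold of 3.78. The paralog Mast4 had 1 in an intron, 68.2 kb from the assigned start at chr13:103239744-103239988, with 6.37 from 18 fragments over 0.369. The atypical protein kinases C, Prkci and Prkcz, which act in cell polarity, both had intronic intervals, with folds of 3.55 from 64 fragments over 7 and 4.38 from 23 over 1.48. Sgk1 and Sgk3, kinases downstream of PI3K, had intervals at 91.5 kb with 3.72 and at 4.83 kb with 5.06.

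Both member genes of the mitotic and NEK families had intervals over their starts. Plk2, a polo-like kinase of centriole duplication, had a fold of 3.57 from 56 fragments (42.3 to 72.7) over 6 at chr13:110394651-110395112, which covers its printed promoter whole. Nek8, a kinase of cilia, had 3.8 from 36 fragments over 3.32 at chr11:78176466-78176671. Vrk1, whose loss in mice depletes dividing spermatogonia, had an interval 1.4 kb upstream at chr12:106008410-106008828 with a fold of 6.23 from 31 fragments over 1.29. Its fold was above the upper quartile of the kinase intervals, 5.13.

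Atypical protein kinases gave both the lowest fold and 1 of the highest. Prkdc, the catalytic subunit of DNA-dependent protein kinase, which joins broken DNA ends, had a fold of 2.77 from 59 fragments (44.9 to 76.1) over 8.49 at chr16:15637573-15637812, 54 bp upstream of its start. That expectation was the highest of the kinase intervals. Eef2k, which slows translation elongation, had 4.58 from 34 fragments over 2.4 at its start. Pdk4, which switches off pyruvate dehydrogenase, had 6.72 from 29 fragments over 1 at chr6:5444520-5444885, 51.4 kb away. Among the remaining protein kinases, Fastk had an interval 13 bp from its start with a fold of 4.86 from 32 fragments over 2.03 at chr5:24444833-24445173. Limk2, which phosphorylates cofilin, had 1 at 2.79 kb with 4.93, Bmp2k 1 at 17.3 kb with 4.88, Ankk1 1 at 34 kb with 4.49, and Pkdcc, a secreted tyrosine kinase, 1 at 55 kb with 4.16.

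The 2 lipid kinase genes had distal intervals. Pik3r1, the regulatory subunit p85 alpha of PI3K, had a fold of 3.17 from 42 fragments over 5 at chr13:101879708-101879970, 111 kb upstream. Dgkg, a diacylglycerol kinase, had 4.19 from 27 fragments over 2 at chr16:22734178-22734391, 77 kb upstream. Of 26 phosphoinositide kinase genes and 19 of the diacylglycerol and sphingosine list these were the only ones named, and none of the 45 had a promoter interval (up to 7.87%, against 2.57% of protein-coding genes).

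The 9 member genes for kinases of small molecules had intervals that touched the gene itself. Pank1, the first enzyme of coenzyme A synthesis, had the highest −log10 q of the kinase promoters, 7.94, with a fold of 5.55 from 56 fragments over 3.51 at chr19:34878073-34878346. Gne, which makes sialic acid precursors, had 5.56 from 37 fragments over 2.03 at chr4:44072383-44072600, and a −log10 q of 4.74. Adk, adenosine kinase, had 4 from 50 fragments over 4.61 at chr14:21052219-21052713, where the interval also overlapped the gene Ap3m1. Nme1, a nucleoside diphosphate kinase, had 4.15 from 27 fragments over its start. The hexokinases Hk1 and Hk2, which open glycolysis, had intronic intervals at 9.74 and 11.8 kb with folds of 3.74 and 5.43. Rbks, ribokinase, had 3 summits in 1 intronic interval, the highest at 3.91, and Itpkb, an inositol trisphosphate kinase, had 4.48 at 34.9 kb. All 9 intervals of this class overlapped the body of the named gene, as did 35 of the 61 kinase intervals (57.4%), against 54.4% of all intervals.

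The scaffold genes and the word matches completed the group. Magi2 had a promoter interval with a fold of 4.33 from 28 fragments over 2 at chr5:20701944-20702319, and Magi3 had 2 upstream, at chr3:104233245-104233568 and chr3:104239691-104239889, with 4.8 from 13 fragments over 0.369 and 4.46 from 33 over 2.4. The highest fold of the 61 belonged to Nyap1, which is no kinase: 9.72 from 43 fragments (31.1 to 57.9) over 1 at chr5:137719146-137719849, 19.9 kb from its start and in no gene. It ranked 21 by fold and 35 by −log10 q among the 1849 intervals. Pdxk-ps had 4.79 at 0.179 kb upstream, and Plaur had 4.23 at 2.35 kb. Without these 4 word matches and the scaffold and small-molecule genes, 45 intervals remained with a median fold of 4.49 and a promoter share of 31.1%, or 14 of 45.

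**Figure D5:**
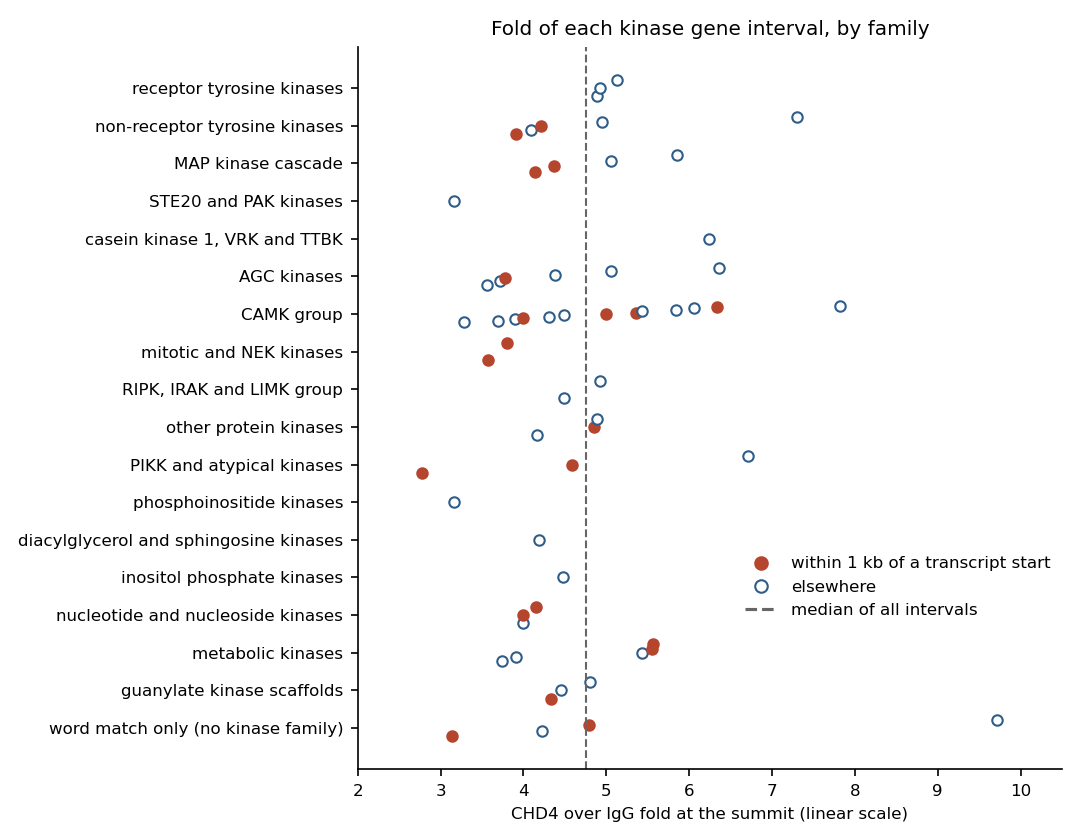
Fold of CHD4 over IgG (horizontal axis, linear) of each of the 61 kinase gene intervals, in rows by family, filled where the interval lies within 1 kb of a transcript start and open elsewhere. The dashed line is the median of all intervals, 4.76, above which 27 of the 61 lie, and the single point beyond 9 is Nyap1.

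By chromosome the kinase intervals were uneven. Chromosome 5 carried 12 of 61 (19.7%), against 6.65% of all 1849, and these 12 belonged to 10 genes from Magi2 to Flt1, since Camkk2 had 3. Chromosome 13 had 5 (8.2%, against 5.25%) and no other chromosome more than 4. Chromosomes 2, 18, X and Y had none, against 116 (6.27%), 55 (2.97%), 19 (1.03%) and 1 (0.0541%) in the whole list. No test was made of these counts.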

How the data were processed

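CUT&Tag libraries of 2 CHD4 and 2 IgG samples underlie 1 deposited peak list. The submitters' processing notes name MACS2 2.1.2, Bowtie2 2.2.5, Trim Galore 0.5.0 and build mm10. Duplicate handling, and how the 2 samples of each antibody entered the call, are not given in the sources used. Per the file headers the authors' fold (FC) is a ratio of CHD4 to IgG, and the deposited log2 column is its logarithm. The deposited −log10 p-values and −log10 q-values had lost their headers and were read by the caller's column order, and the deposited score is 10 times the −log10 q without decimals. The largest q was 0.0492. A peak's values were used only to describe, rank and filter peaks within this list. One peak stands in the header line and was not analysed here.

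Rows with the same coordinates were joined into intervals, each taking the values of its summit of highest fold. Fragments were recovered from fold and −log10 p on a Poisson model with a scale of 0.429, which solved all 2066 summits to within 0.0005 on −log10 p, 2064 of them with 1 solution. The best other scale, submultiples aside, solved 45% of 40 summits. A submultiple of the scale also solves every summit, so the largest scale was taken. A smaller scale would give larger fragment numbers. The method was tested on simulated data. Shares have exact 95% binomial intervals, fragment numbers exact Poisson intervals and medians order-statistic intervals. Intervals of 1 list are not biological replicates. Gene bodies came from the RefSeq table of GRCm38.p6, whose coordinates are those of mm10, and all 54 member genes were found in it by identifier. Outside chromosome Y, genes starting before 3 Mb were dropped. Kinase families were symbol lists, corrected for 23 symbols after the files were seen. Members and lists were chosen with earlier results of these data known. Every member gene is named, apart from 2 that are not reported here. Full values go to the 10 highest folds, the 10 promoter intervals of highest −log10 q, genes with 2 or more intervals and the extremes of distance, and further positions were added after the values were seen. Of the 21 genes with a promoter interval, 18 had an entry in the RefSeq promoter table. Alternatives changed the promoter definition, the unit, the q threshold, the fold, the gene set and the fragment number. Python 3.11.15, pandas 2.3.3 and scipy 1.17.1 were used.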

Additional observations from a re-analysis of the deposited data

How the results depend on the processing

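Of 9 alternatives for the promoter share of 34.4%, 8 stayed within its exact interval. Of these 8, 1 left out intervals that overlap small RNA genes. It removed no kinase interval, so its value could not differ. Counting only intervals that contain the start gave 13.1%, since that definition is narrower by construction. Among kinase intervals with a fold at or above the median of the list the share was 25.9%, and with 20 or more fragments it was 40.9%. Promoter intervals of the whole list also had a lower median fold than the others, 4.32 against 4.98. Fewer than 20 fragments lay at 101 of its 631 promoter intervals and at 373 of its 1218 others. The median fold of 4.48 stayed within its interval under 6 of 7 alternatives. The 6 include the same removal at small RNA genes, which could not change it. With −log10 q of 3 or more it was 5.36 over 23 intervals. Fold and −log10 q rest on the same CHD4 and IgG levels at a summit, so this threshold is not independent of fold. The cause of the higher median was not tested. The 54 genes became 21 with an interval within 1 kb of the start and 22 at the stricter q, both of which keep fewer intervals by construction. The other 3 alternatives for this count stayed within 1.5 times of it. Fragment number and 1 interval per gene were alternatives added after seeing the data. No paired analysis was possible because the peak list has no value per sample, and no replicate could be left out. The overlap of peak sets was not varied, as there is 1 list. Depth limits the list: 17 of 61 kinase intervals, and 474 of all 1849, rest on fewer than 20 CHD4 fragments.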

Other observations

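Kinase genes whose full names do not hold the word, or hold an excluded word, also had intervals: 13 genes of the family lists, with 18 intervals. Wee1, which restrains entry into mitosis, had 4, the same number as Trib1. The Wee1 interval at the promoter had a fold of 2.06, and those at 4.88, 11.4 and 12.6 kb had 5.21, 5 and 3.1. Acvr2b, an activin receptor, Epha2, an ephrin receptor, and Coq8b, an atypical kinase linked to coenzyme Q, had promoter intervals with folds of 4.34, 4.93 and 3.76. Igf1r, the receptor of insulin-like growth factor, had 1 at 68.9 kb with 4.33, Lats2, a Hippo pathway kinase, 1 at 2.05 kb with 3.76, and Pim1 1 at 50.5 kb with 4.7. Trio had 2 intervals with 4.48 and 4.05, Nme9 2 with 5.88 and 3.8, and Mpp3 1 with 5.86. Hipk2 and Sbk1, kinases whose names hold interacting and binding, had 4.51 and 5.05. The other 7 genes removed by an excluded word are no kinases: Akap13, Akap2, Akap5 and Akap7, which anchor protein kinase A, Aunip, Cdkn2b and Pkig.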
